A study of Mus musculus with 36 samples.

Results

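The transcripts described are 10 genes that glucocorticoid hormones are known to act on or act through: Sgk1, Tsc22d3, Fkbp5, Zbtb16, Nr3c1, Hsd11b1, Mt1, Mt2, Dusp1 and Errfi1. They were picked by gene symbol with earlier results of these data known, and all 10 were found among the 56748 genes of the expression table. The table covers visceral white adipose tissue (visWAT, labelled epididymal adipose tissue) and liver of the same 18 mice, so 36 libraries fall into 8 groups of tissue, genotype and diet. Male mice on a C57BL/6J background, 16 weeks old at the start, were kept for 16 weeks on normal chow (NCD) or on a diet rich in fat (HFD). All mice carried floxed alleles of Mlkl, which encodes the pseudokinase that executes necroptosis. AdipoCre Mlkl lox/lox mice (KO) also carried an adipocyte Cre transgene, and their WT littermates lacked Cre, so neither genotype is a mouse without floxed alleles, and no group carried Cre without floxed Mlkl. Each tissue had 4 WT NCD, 4 KO NCD, 5 WT HFD and 5 KO HFD mice. Cre acts in adipocytes, so every other cell type of the fat and all of the liver kept Mlkl by design.

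Glucocorticoids cross the cell membrane and bind the glucocorticoid receptor, the product of Nr3c1, which moves to the nucleus and acts on genes that carry its response element, an imperfect palindrome read by a receptor dimer. Hsd11b1 encodes the enzyme that regenerates active hormone from its inert keto form inside fat and liver cells. Among classical targets, Sgk1 encodes a kinase of ion transport and cell survival, Tsc22d3 the anti-inflammatory leucine zipper protein GILZ, Fkbp5 a co-chaperone that lowers the receptor's hormone affinity, and Zbtb16 the zinc finger repressor PLZF. Dusp1, a phosphatase of MAP kinases, and Errfi1, an inhibitor of the EGF receptor, also respond to growth factors and stress, and the metallothioneins Mt1 and Mt2 also respond to zinc and other metals. Circulating hormone was not among the measurements used here, and the hour of tissue collection is not given in the sources used here.

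Levels are FPKM, fragments scaled to gene length and library size, which allow genes to be compared per length. Reads on genes numbered 21580696 to 30322171 in visWAT and 20875463 to 25530574 in liver. Mlkl read 3.91 to 5.11 FPKM in the visWAT of 3 WT NCD mice and 4.58 to 6.28 in WT HFD, against 1.96 to 2.72 in KO visWAT. The visWAT library of the mouse 182, labelled WT NCD, read 2.29 and so went against its label. That of WT NCD mouse 183 held seminal vesicle and epididymis transcripts summing to 284600 FPKM. The main tests that use these 2 libraries are also given without them, group levels and marker sums include them, and WT NCD means the mice labelled so. Nothing in the labels gives a cohort, a cage or a date.

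The response element was searched as GNACANNNTGTNC, a palindrome that reads alike on both strands, within 5000 bases on each side of the canonical GENCODE vM39 start of each gene in GRCm39. It was present for 5 of the 10 genes, against 15.5% of 21765 protein-coding starts and 15 of 32 (46.9%) other known glucocorticoid targets. No match in these letters lay in the windows of Tsc22d3, Zbtb16, Nr3c1, Hsd11b1 or Errfi1. The matches are shown because they are the sequence feature that these genes might share, with the 13 motif bases in capitals and each read 5′ to 3′ on the strand of its gene. They lie in an intron of Sgk1 (chr10:21869589-21869625, plus strand, centre at -958 from the start), in an intron of Fkbp5 (chr17:28703915-28703951, minus strand, at 1219), at -81 from the start of Mt1 in an exon of the noncoding gene Gm63980 (chr8:94905611-94905647, plus strand), between Mt2 and Mt1 (chr8:94901308-94901344, plus strand, at -4384 from Mt1 and 2194 from Mt2), at -962 from the start of Mt2 in an exon of Gm45774 (chr8:94898152-94898188, plus strand) and at -974 from the start of Dusp1 in an exon of Gm56886 (chr17:26728449-26728485, minus strand).
Sgk1: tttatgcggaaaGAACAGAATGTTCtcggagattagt
Fkbp5: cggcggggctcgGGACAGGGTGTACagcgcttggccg
Mt1: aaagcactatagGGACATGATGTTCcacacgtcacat
Mt1 and Mt2: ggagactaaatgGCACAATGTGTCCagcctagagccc
Mt2: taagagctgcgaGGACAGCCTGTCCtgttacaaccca
Dusp1: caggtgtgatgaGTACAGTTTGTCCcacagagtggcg
These are letters in the reference genome, and binding of the receptor to them was not measured.

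Across the 8 groups the genes did not share one order of levels. Sgk1 was highest in WT NCD visWAT at 23.66 ± 19.4 FPKM (SD, n = 4), followed by KO NCD visWAT at 18.15 ± 5.39 (n = 4), WT HFD visWAT at 15.9 ± 1.38 (n = 5) and KO HFD visWAT at 9.876 ± 2.10 (n = 5). The first place rests on the mouse 183 at 52.2 FPKM, since mice 165 and 180 read 16.8 and 16.2, both below the KO NCD mean. The 4 liver groups lay lower, between 8.785 ± 4.39 in WT NCD and 4.135 ± 1.25 in KO HFD. Of the neighbours in that order, WT HFD and KO HFD visWAT had ranges that did not overlap, as did KO NCD and WT HFD liver, while the ranges of the other neighbours overlapped. Tsc22d3 went from 62.62 ± 20.7 FPKM in WT NCD liver to 30.33 ± 5.65 in KO HFD visWAT with every pair of neighbours overlapping. Zbtb16 fell into an upper set of the 4 NCD groups of both tissues, with means of 8.677 to 19.99 FPKM, and a lower set of the 4 HFD groups, 1.739 to 2.339.

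**Figure D1:**
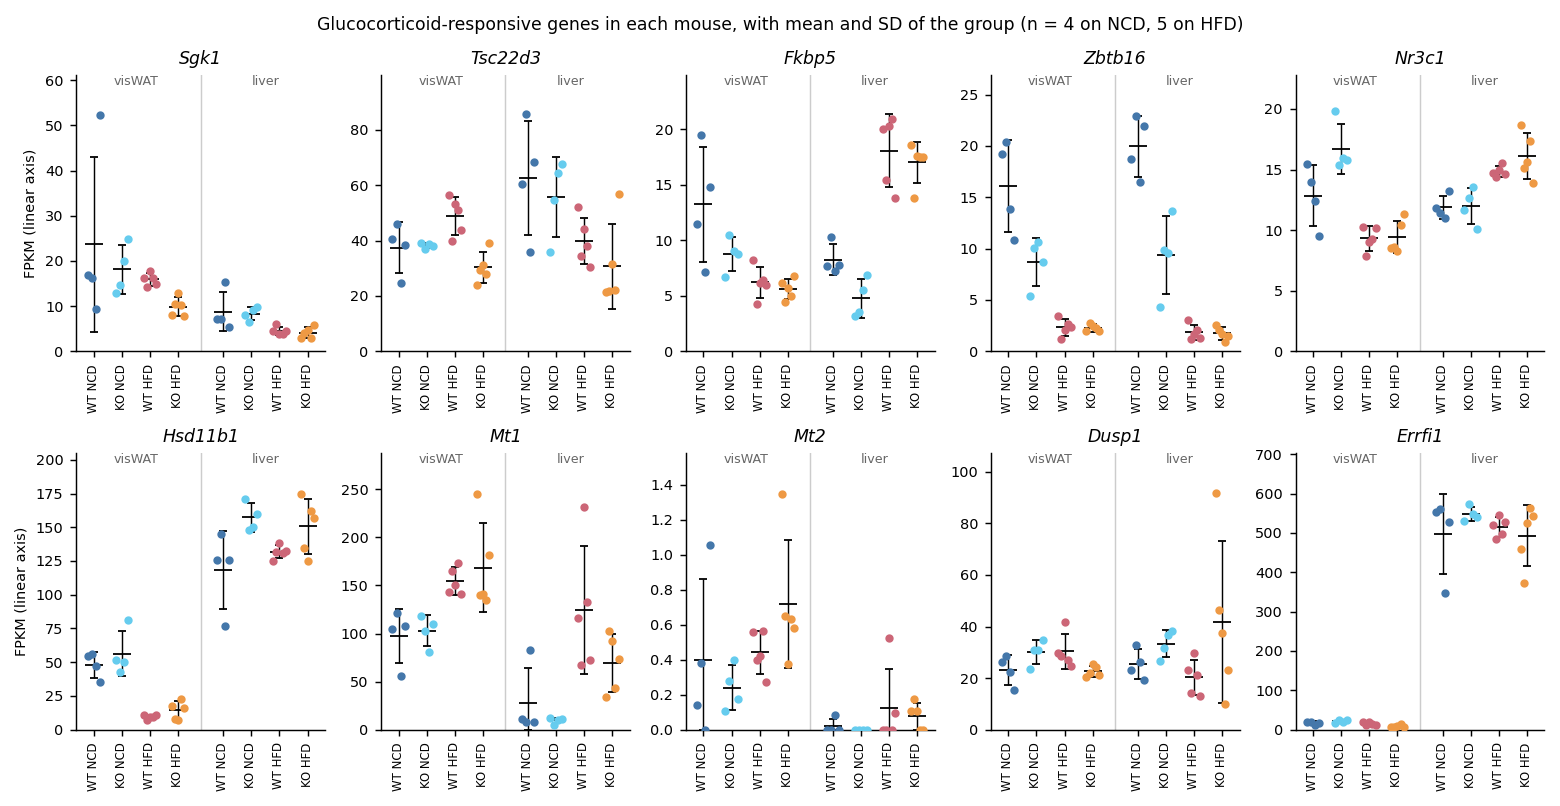
FPKM (vertical axis, one panel and one scale per gene) of the 10 genes in each of the 36 libraries, with the 8 groups of tissue, genotype and diet along the horizontal axis, points for mice and bars for the group mean ± SD. Zbtb16 is low in every HFD group of both tissues, Hsd11b1 is low only in HFD visWAT among the 8 groups, and Sgk1 and Tsc22d3 in visWAT are lower in KO than in WT on HFD.

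Most of these genes differed in level between the tissues. Over all groups, in limma on log2(FPKM + 1) with p-values adjusted over all genes tested, 6 of 9 tested genes differed between visWAT and liver (2 higher, 4 lower in visWAT), where 88.8% of all genes did. Errfi1 was the most distant, at 7.883 to 21.19 FPKM as group means in visWAT and 492.9 to 548.3 in liver, a log2 difference of -5.08 (SE 0.10). Hsd11b1 followed at -2.46 (SE 0.11), while Sgk1 (1.22, SE 0.14) and Mt1 (1.91, SE 0.22) were higher in visWAT. Fkbp5 and Nr3c1 gave small negative differences of -0.38 (SE 0.10) and -0.20 (SE 0.05), which turned to 0.53 and 0.73 on a TPM scale, where the median of all genes moved to 0.82, so that their direction depended on the scaling. With the mouse as a block Tsc22d3 passed as well (-0.20, limma adjusted p = 0.0111). On the TPM scale Tsc22d3 turned to 0.75 (limma adjusted p = 2.675e-06), so its direction depended on the scaling too. Zbtb16 (0.94) and Dusp1 (0.90), near 0 in the main fit, also passed on that scale. Without both tissues of mice 182 and 183 the 6 calls stood, with Sgk1 at 1.20, Mt1 at 2.14, Hsd11b1 at -2.47, Errfi1 at -5.07, Fkbp5 at -0.35 and Nr3c1 at -0.145. Fat and liver RNA was also extracted by different procedures, and tissue and extraction cannot be told apart. Mt2 stayed at or below 1.35 FPKM in every library, with no read in any KO NCD liver, and it passed the filter on low values (mean FPKM at least 0.5) in only 2 comparisons, KO against WT on HFD and HFD against NCD in KO, both in visWAT. Of its exonic bases, 82.4% are shared with the antisense gene Gm45774. Whether strand was used in counting is not stated in the sources used here, so reads of the pair cannot be told apart.

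In visWAT on HFD, the comparison that asks what loss of adipocyte Mlkl changes in obese fat, Sgk1 and Tsc22d3 were lower in KO than in WT by nearly the same factor, Errfi1 and Dusp1 lay lower as well, and Fkbp5, Zbtb16 and Nr3c1 were level. Sgk1 read 16.3, 14.2, 17.8, 16.3 and 14.9 FPKM in the WT mice and 8.06, 10.4, 12.96, 10.2 and 7.76 in the KO mice. Tsc22d3 read 56.4, 39.9, 53.1, 51.2 and 43.8 in WT and 23.8, 29.4, 31.1, 28.1 and 39.2 in KO. For both genes every KO mouse lay below every WT mouse, with the closest approach for Tsc22d3 between the KO mouse 157 and the WT mouse 155. Of the 10 genes these 2 had groups that did not overlap with KO lower, where 1.59% of all genes did. The study had already listed Sgk1 with its strongest decreases in this comparison, and the genes were chosen with earlier results known. The values here therefore describe the same data and are no independent support. The ratio of WT to KO means was 1.61 for Sgk1 and 1.61 for Tsc22d3, and the exact permutation test gave p = 0.00794 for each, the smallest two-sided value that 5 against 5 mice allow. Over the whole table the differences of -0.65 (SE 0.12) for Sgk1 and -0.68 (SE 0.13) for Tsc22d3 had unadjusted limma p of 0.000312 and 0.000459 but adjusted p of 0.190 and 0.194, and across all settings tried the adjusted p ran from 0.00187 to 0.387 and from 0.00256 to 0.398.

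Errfi1 read 19.7, 11.2, 18.8, 13.3 and 12.6 FPKM in WT HFD visWAT and 5.58, 6.06, 8.70, 13.4 and 5.65 in KO. The groups overlapped through the KO mouse 156 alone, whose value lay above 3 of the 5 WT mice. The log2 difference was -0.90 (SE 0.24, adjusted p = 0.221 in limma, 0.0463 to 0.42 over the settings). Dusp1 read 29.6, 28.6, 41.8, 27.1 and 24.6 in WT and 20.3, 22.1, 25.3, 24.3 and 21.2 in KO, with 1 KO mouse above the lowest WT mouse, and differed by -0.39 (SE 0.13, adjusted p = 0.221 in limma, 0.0875 to 0.42 over the settings). The exact permutation test gave p = 0.0317 for Errfi1 and 0.0159 for Dusp1.

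The remaining glucocorticoid genes of HFD visWAT gave no such difference. Fkbp5 stood at 6.203 ± 1.39 FPKM in WT and 5.594 ± 0.915 in KO, Zbtb16 at 2.339 ± 0.805 and 2.294 ± 0.363, and Nr3c1 at 9.318 ± 0.999 and 9.438 ± 1.34 (SD, n = 5 each). Hsd11b1 spread more widely in KO, at 17.3, 7.80, 7.37, 22.8 and 16.3 FPKM against 7.13 to 11.1 in WT, and its log2 difference of 0.43 (SE 0.28, limma adjusted p = 0.357) lay within that spread. Mt1 was 154.6 ± 14.2 in WT and 168.6 ± 46.5 in KO. Mt2, at 0.444 FPKM in WT and 0.718 in KO as group means, passed the filter only through its KO values. Its difference is therefore a description, and it is among the 10 genes counted next. By the adjusted limma p, 0 of the 10 genes passed, against 0.0215% of all genes. At an unadjusted p under 0.05, 4 of the 10 passed, all lower in KO, where 21.5% of all genes passed in either direction and 11% passed as lower. edgeR on the recovered reads called 0 of the 10 (0.0215% of all genes), and DESeq2 called 3, Sgk1, Tsc22d3 and Errfi1, where it called 1.15% of all genes. Without the KO mouse 153, the highest KO value of Sgk1, limma called Sgk1 as well, at -0.75 (adjusted p = 0.0398).

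Of 32 other glucocorticoid targets, 30 were tested in the same comparison and 0 passed the adjusted limma p. At an unadjusted p under 0.05, 9 lay lower and 1 higher in KO, where 11% of all genes lay lower and 10.5% higher. Their median difference was -0.208 beside -0.001 over all genes tested. The median over the 10 genes themselves, Mt2 included, was -0.054, and without Mt2 the middle gene was Fkbp5 at -0.117. Macrophage and adipocyte transcripts also leaned apart between the groups, though 0 of 10 markers in each list passed the adjusted limma p. The summed level of 10 macrophage markers ran from 1631 to 2298 FPKM in WT HFD and from 641.8 to 2100 in KO HFD, with 4 of 10 lower at an unadjusted p under 0.05 and a median of -0.673, and 10 adipocyte markers summed to 5052 to 6451 in WT HFD and 5688 to 12620 in KO HFD, with 6 of 10 higher and a median of 0.46. The shares of all genes given above, 11% lower and 10.5% higher, also apply to these marker counts. No marker of either list was at 0 in visWAT. Within the KO mice the sums split, since mice 156 and 157 had 690 and 641.8 FPKM of macrophage markers and 152 and 153 had 1986 and 2100. In bulk tissue, fewer cells of a type and less RNA per cell cannot be told apart, and the part of cell composition in these differences was not tested.

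**Figure D2:**
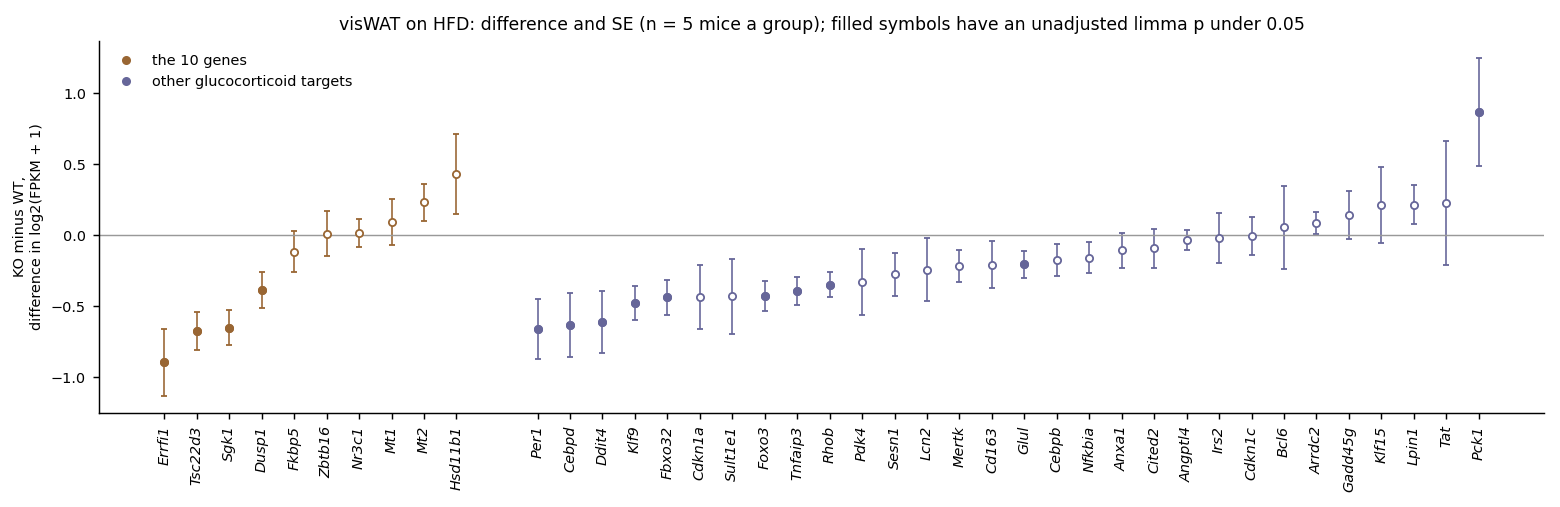
Log2 difference on the log2(FPKM + 1) scale, KO minus WT, in HFD visWAT for the 10 genes and for the 30 other glucocorticoid targets that passed the filter on low values, with filled points for an unadjusted limma p under 0.05. Sgk1, Tsc22d3, Dusp1 and Errfi1 are filled and lie below 0, while Fkbp5, Zbtb16 and Nr3c1 lie between -0.12 and 0.01.

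In visWAT on NCD none of the genes passed the adjusted test between genotypes. Zbtb16 read 19.2, 20.3, 13.9 and 10.9 FPKM in the WT mice and 5.36, 10.03, 10.7 and 8.67 in the KO mice. No KO mouse reached a WT mouse, but the gap was narrow, between the WT mouse 183 and the KO mouse 197. The log2 difference was -0.82 (SE 0.24, limma adjusted p = 0.916, 0.239 to 0.9997 over the settings), and the exact permutation test gave p = 0.0286, the smallest that 4 against 4 mice allow. Among the 10 genes it was the only one without overlap, where 2.46% of all genes had none in either direction. Nr3c1 was 16.73 ± 2.06 FPKM in KO against 12.84 ± 2.53 in WT (0.37, SE 0.15, exact permutation p = 0.0571).

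Sgk1 and Tsc22d3 gave NCD differences in visWAT of -0.12 (SE 0.46) and 0.07 (SE 0.18). Sgk1 read 16.8, 16.2, 9.34 and 52.2 FPKM in WT NCD, so that its spread came from the mice 182 and 183, and 12.98, 14.8, 19.98 and 24.9 in KO NCD. By limma 0 of 9 tested genes passed the adjusted p (0% of all genes), and 2, Zbtb16 and Nr3c1, passed an unadjusted p under 0.05 (3.75% of all genes). edgeR called 0 of 9 (0% of all genes) and DESeq2 0 of 9 (0.0569%). Without the libraries of mice 182 and 183, Zbtb16 differed by -1.14, Fkbp5 by -0.73, Nr3c1 by 0.17 and Sgk1 by 0.09. The limma adjusted p of each was then 0.9997.

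The genotype effect on HFD was then set against that on NCD in one fit over the 4 visWAT groups. None of the 9 tested genes passed the adjusted limma p (0% of all genes), nor in edgeR (0%) or DESeq2 (0.134%), and 4 passed an unadjusted p under 0.05, where 13.2% of all genes did. The KO effect was more negative on HFD for Errfi1 (-1.22, SE 0.34), Tsc22d3 (-0.74, SE 0.23) and Dusp1 (-0.77, SE 0.24) and less negative for Zbtb16 (0.83, SE 0.30), and these were the 4. Without mice 182 and 183 they were -0.97, -0.505, -0.505 and 1.15, in the same order. For Sgk1 it was -0.53 (SE 0.46, limma adjusted p = 0.603), and -0.74 (SE 0.26, adjusted p = 0.518) without mice 182 and 183. The limma adjusted p of Errfi1 was 0.314 (0.115 to 0.545 over the settings) and that of Tsc22d3 was 0.325 (0.131 to 0.554).

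HFD lowered the steroid-handling gene and the Zbtb16 transcript of visWAT strongly in both genotypes. Sgk1 and Tsc22d3 passed the main limma test in KO and not in WT, and the interaction above is the test of that difference. Hsd11b1 read 54.8, 55.9, 46.8 and 35.1 FPKM in WT NCD and 7.13 to 11.1 in WT HFD, and 51.4, 42.9, 49.8 and 80.9 in KO NCD against 7.37 to 22.8 in KO HFD. On each genotype every HFD mouse lay below every NCD mouse. The mean was 5.04 times higher on NCD in WT and 3.94 times in KO, and the log2 differences were -2.21 (SE 0.16, limma adjusted p = 7.44e-06) and -1.98 (SE 0.34, adjusted p = 0.00189). Zbtb16 fell from the NCD values given above to 1.22 to 3.41 FPKM in WT HFD and 1.94 to 2.80 in KO HFD, again without overlap. Its mean was 6.87 times higher on NCD in WT and 3.78 times in KO, with log2 differences of -2.35 (SE 0.23, limma adjusted p = 4.25e-05) and -1.52 (SE 0.17, adjusted p = 0.000375).

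In WT visWAT 5 of 9 tested genes passed the adjusted limma p (1 higher, 4 lower), where 37.8% of all genes did. Fkbp5 fell with HFD by 0.93 on the log2 scale (SE 0.25, adjusted p = 0.0177), the receptor gene Nr3c1 fell by 0.41 (SE 0.13, adjusted p = 0.0357), and Mt1 rose by 0.71 (SE 0.21, adjusted p = 0.0240). The calls of Fkbp5, Nr3c1 and Mt1 were lost under other settings. On a TPM scale, where the median of all genes moved by 0.423, Fkbp5 gave an adjusted p of 0.221 and Nr3c1 a difference of 0.03, so that 2 rose and 2 fell there. The Nr3c1 call was lost, with adjusted p from 0.0518 to 0.0963, when any one of the WT NCD mice 165, 180 and 182 or the WT HFD mice 155, 161 and 162 was left out, and the Mt1 call was lost (0.0550 and 0.0561) without the WT HFD mouse 155 or 162. Without both mice 182 and 183 the same 5 genes were called, Hsd11b1 at -2.43, Zbtb16 at -2.67, Fkbp5 at -1.17, Nr3c1 at -0.61 and Mt1 at 0.446. Sgk1 and Tsc22d3 did not pass, at -0.27 (SE 0.39, adjusted p = 0.618) and 0.40 (SE 0.18, adjusted p = 0.111), and at -0.06 and 0.16 without these 2 mice. On the TPM scale limma called Tsc22d3 as higher on HFD, at 0.88 (adjusted p = 0.0446), and Sgk1 did not pass there (0.21, adjusted p = 0.605). In WT NCD visWAT, all FPKM of mouse 183 summed to 564717.6, against 243502.9 to 309819.9 in the other mice. TPM divides by this sum, and the part of that library in the TPM values was not tested.

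In KO visWAT 9 of the 9 genes other than Mt2 passed the adjusted limma p (1 higher, 8 lower), where 43.7% of all genes did. Mt2, at 0.239 FPKM on NCD and 0.718 on HFD as group means, passed the filter only through its HFD values and had to differ to do so, so its difference is given as a description. Sgk1 read 12.98 to 24.9 FPKM on NCD and 7.76 to 12.96 on HFD, so that the groups just missed each other, and fell by 0.80 (SE 0.20, adjusted p = 0.0111, 0.000254 to 0.0596 over the settings). Tsc22d3 read 39.1, 37.1, 38.9 and 37.9 on NCD and 23.8 to 39.2 on HFD, with the KO HFD mouse 157 above all NCD mice, and fell by 0.34 (SE 0.12, adjusted p = 0.0443). Errfi1 fell by 1.37 (SE 0.24, adjusted p = 0.00225), Nr3c1 by 0.77 (SE 0.11, adjusted p = 0.000872), Fkbp5 by 0.56 (SE 0.13, adjusted p = 0.00877) and Dusp1 by 0.39 (SE 0.11, adjusted p = 0.0219). Mt1 rose by 0.68 (SE 0.19, adjusted p = 0.0180).

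The weakest calls of KO visWAT did not hold when single mice were left out. That of Tsc22d3 was lost (adjusted p from 0.0631 to 0.0957) without any one of the KO NCD mice 166, 179, 197 and 199 or the KO HFD mice 151, 152, 153 and 156. That of Dusp1 was lost without 179, 197, 199 or 151 (0.0508 to 0.0623) and that of Mt1 without 197 (0.0553). In 1 fit over all 4 visWAT groups Sgk1, Tsc22d3 and Dusp1 did not pass.

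**Figure D3:**
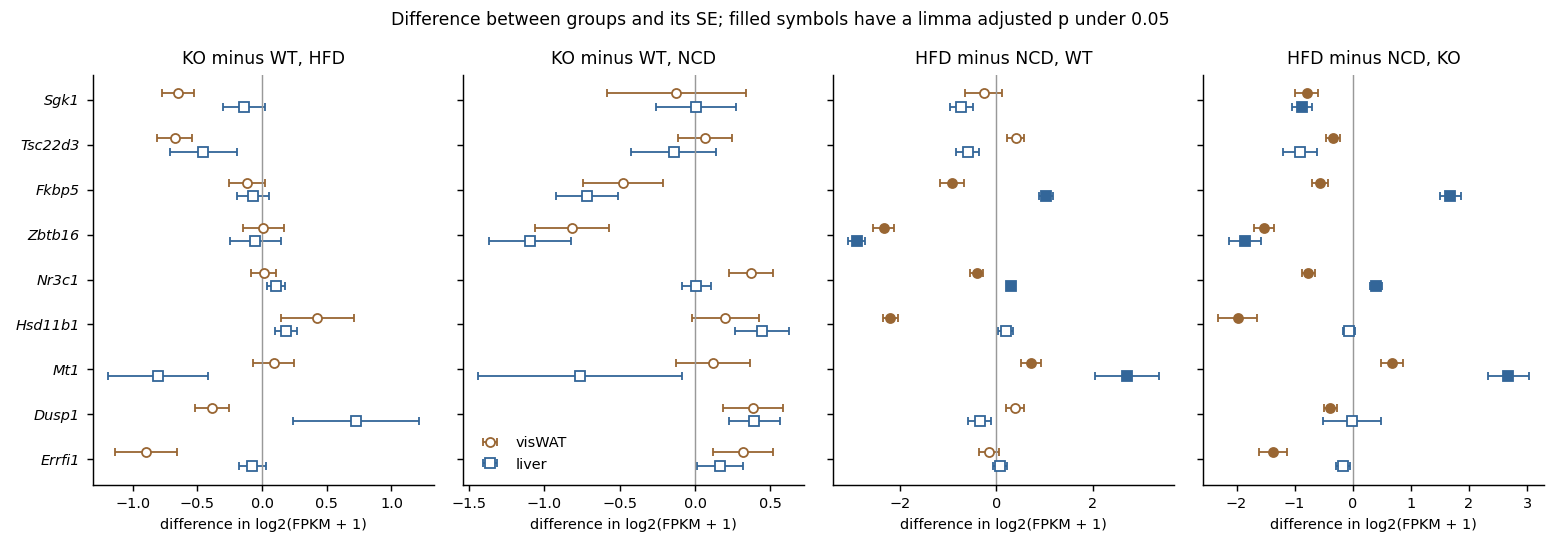
Log2 difference ± SE on the log2(FPKM + 1) scale (horizontal axis) of the 9 genes other than Mt2 in KO against WT on each diet and in HFD against NCD in each genotype, for visWAT and liver, with filled points for a limma adjusted p under 0.05. Zbtb16 is filled and lies left of 0 in the diet comparisons of both tissues, and Fkbp5 is filled on opposite sides of 0 in visWAT and liver.

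Transcripts that mark cell types also moved with diet in visWAT. Of 10 macrophage markers 10 rose in WT (median 2.573) and 8 in KO (median 1.595), where 37.8% and 43.7% of all genes were called. Of 10 adipocyte markers 6 fell and 1, Lep, rose in WT (median -0.687), and 4 fell and 2 rose in KO (median -0.332). Among hepatocyte markers 1 of 6 tested in WT and 1 of 8 in KO fell, Cyp2e1 in both (-4.205 and -3.02), while the list medians were 0.332 and 0.45. The part of these transcripts' cells in the levels above was not tested. Of the 30 other glucocorticoid targets tested in WT visWAT, 5 rose and 4 fell, with a median of -0.026 beside -0.006 over all genes. Among them Anxa1, an annexin of inflammation, rose by 2.05 (SE 0.17), and Pck1, which drives glyceroneogenesis in fat, fell by 2.01. In KO visWAT 4 rose and 16 of 31 fell, with a median of -0.354 beside 0.009 over all genes, Anxa1 by 1.48 upwards and the steroid sulfotransferase Sult1e1 by 1.76 downwards. The comparisons within WT and within KO share no mice.

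Upstream of these targets stand other genes of receptor action and steroid handling. In WT visWAT 1 of 13 tested rose and 2 fell with HFD, where 37.8% of all genes were called. The 2 that fell were Por, the electron donor of steroid hydroxylases, by 0.73, and the corepressor Ncor1 by 0.30. In KO visWAT 3 of 13 rose and 5 fell, where 43.7% of all genes were called, Nr3c2, the mineralocorticoid receptor, by 0.59. Of 6 tested SGK relatives, activators and substrates, 1 rose and 2 fell in each genotype, beside the same shares of all genes (37.8% in WT, 43.7% in KO). Nedd4l, a ubiquitin ligase that SGK1 phosphorylates, rose by 0.85 in WT and 0.82 in KO. Pdpk1 and Rictor, which act in the activation of SGK1, fell by 0.34 and 0.25 in WT and by 0.47 and 0.24 in KO. Beside Mt1, the zinc transporter Slc39a10 (0.63) and Hmox1 (2.13), which encodes heme oxygenase, rose in WT visWAT among 6 tested metal-response genes, along with Mt3 (0.97). These were 3 of 6 in WT, where 37.8% of all genes were called, and in KO 1 of 6 rose (43.7%).

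In liver on NCD, Zbtb16 and Fkbp5 lay lower and Hsd11b1 higher in KO than in WT. Zbtb16 read 18.7, 22.9, 16.4 and 21.9 FPKM in WT and 4.36, 9.86, 9.55 and 13.6 in KO. Fkbp5 read 7.67, 10.3, 7.27 and 7.78 in WT and 3.22, 3.50, 5.51 and 6.90 in KO. Neither gene had a KO mouse as high as any WT mouse. Zbtb16 was 2.14 times higher in WT (-1.10, SE 0.27, limma adjusted p = 0.908, 0.0411 to 1.0 over the settings) and Fkbp5 1.73 times (-0.72, SE 0.21, limma adjusted p = 0.996).

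Hsd11b1 read 126, 145, 76.8 and 126 FPKM in WT NCD liver and 171, 148, 151 and 160 in KO, a log2 difference of 0.44 (SE 0.18, limma adjusted p = 0.996). The liver library of mouse 182 stood apart too, with a chi-square per gene of 107.49 to 123.01 against the other WT NCD livers. Those livers, mouse 183 among them, gave 12.09 to 20.74 with each other. Without the livers of mice 182 and 183, whose fat libraries stand apart, the differences were -1.16, -0.82 and 0.22 for Zbtb16, Fkbp5 and Hsd11b1, with a limma adjusted p of 0.9999 for each. These 3 genes had no overlap between the groups, where 2.80% of all genes had none, and for each the exact permutation p was 0.0286. By limma 0 of 9 passed the adjusted p (0.00758% of all genes) and 4 passed an unadjusted p under 0.05 (4.35% of all genes), the fourth being Dusp1 at 0.39. edgeR called 0 of 9 (0.00758% of all genes), and DESeq2 called 1, Zbtb16 (adjusted p = 0.0411), where it called 0.159% of all genes. Sgk1 and Tsc22d3 gave 0.01 (SE 0.26) and -0.14 (SE 0.28). The visWAT and liver libraries come from the same mice, so the NCD values of Zbtb16 and Fkbp5 in the 2 tissues are not independent.

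In liver on HFD 0 of 9 genes passed the adjusted limma p (0.197% of all genes) and 0 passed an unadjusted p under 0.05 (12.6% of all genes), with 0 by edgeR (0.204%) and 0 by DESeq2 (1.98%). None of the genes had groups without overlap. Tsc22d3 read 52.0, 34.6, 44.1, 38.1 and 30.6 FPKM in WT and 21.3, 21.7, 31.5, 21.98 and 56.9 in KO, so that 3 KO mice lay below all WT mice and the KO mouse 157 above all of them (-0.45, SE 0.26, exact permutation p = 0.159). Sgk1 was 4.57 ± 0.871 in WT and 4.135 ± 1.25 in KO (-0.14, SE 0.16). Mt1 gave -0.80 (SE 0.39, exact permutation p = 0.119) with KO values of 34.5 to 102 inside and below the WT range of 67.3 to 232, and Dusp1 spread from 9.78 to 91.8 in KO. Of 30 other glucocorticoid targets tested, 2 fell in KO, Igfbp1, a binding protein of insulin-like growth factors (-1.49, SE 0.23, limma adjusted p = 0.0401), and Lpin1, a phosphatidate phosphatase (-1.48, SE 0.20, adjusted p = 0.0171), with a list median of -0.198 beside 0.002 over all genes. In the fit over the 4 liver groups, 0 of 9 passed the adjusted limma p for a difference of the KO effect between diets (0.0151% of all genes), 0 in edgeR (0.00755%) and 0 in DESeq2 (0.476%). Zbtb16 (1.05, SE 0.35, limma adjusted p = 0.53) and Fkbp5 (0.64, SE 0.24, adjusted p = 0.646) passed an unadjusted p under 0.05, where 6.12% of all genes did.

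HFD lowered Zbtb16 in liver as it did in fat, and it raised Fkbp5, the opposite of fat. Zbtb16 stood at 1.17 to 3.03 FPKM in WT HFD and 0.892 to 2.58 in KO HFD, all below the NCD values given above. The NCD mean was 10.8 times higher in WT and 5.38 times in KO, with log2 differences of -2.91 (SE 0.18, limma adjusted p = 2.02e-05) and -1.86 (SE 0.28, adjusted p = 0.00159). Fkbp5 read 13.8, 15.4, 20.3 and 20.9 FPKM in 4 WT HFD mice and 20 in the fifth and 18.6, 13.8, 17.6, 17.5 and 17.5 in KO HFD, above every NCD liver of either genotype. It rose 2.19 times in WT and 3.55 times in KO (1.04, SE 0.14, adjusted p = 0.000904 in limma, and 1.68, SE 0.18, adjusted p = 0.000296).

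Mt1 rose in liver in both genotypes. It read 11.2, 8.44, 82.5 and 8.01 FPKM in WT NCD and 116, 67.3, 232, 132 and 72.1 in WT HFD, and 4.94 to 11.7 in KO NCD against 34.5 to 102 in KO HFD. The WT groups overlapped through the mouse 182 alone. The log2 differences were 2.72 in WT (SE 0.66, limma adjusted p = 0.0160, 0.000286 to 0.0622 over the settings, of which edgeR gave 0.0622) and 2.68 in KO (SE 0.35, adjusted p = 0.00084), and without the livers of mice 182 and 183 the WT difference was 3.395. Nr3c1 rose by 0.30 in WT (SE 0.06, adjusted p = 0.00477) and by 0.40 in KO (SE 0.10, adjusted p = 0.0205), the latter lost without the KO NCD mouse 166 or 199 (0.0527 and 0.0537). Hsd11b1 gave 0.19 and -0.07 and Errfi1 0.07 and -0.17, with no call.

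In WT liver 4 of 9 genes passed the adjusted limma p (3 higher, 1 lower; 25.3% of all genes), and in KO liver 5 of 9 did (3 higher, 2 lower; 22.2% of all genes). The fifth in KO was Sgk1, which read 7.95, 6.46, 9.07 and 9.71 FPKM on NCD and 2.99, 4.04, 4.77, 2.96 and 5.91 on HFD, without overlap, and fell by 0.88 (SE 0.18, adjusted p = 0.00729). In WT it read 7.25, 7.22, 15.2 and 5.43 on NCD and 3.79 to 5.98 on HFD, overlapping through the NCD mouse 183 alone, and differed by -0.73 (SE 0.24, limma adjusted p = 0.0520, 0.0031 to 0.111 over the settings). Leaving out the WT NCD mouse 182 or 183 made that a call (0.0340 and 0.0286), and edgeR and DESeq2 called it too. Tsc22d3 differed by -0.60 in WT (SE 0.24, adjusted p = 0.0998 in limma, 0.00749 to 0.231 over the settings) and by -0.91 in KO (SE 0.30, adjusted p = 0.0554, 0.00647 to 0.137). DESeq2 called Tsc22d3 in WT (adjusted p = 0.0135), and so did limma without the mouse 182 (0.00749). In KO limma called it on a TPM scale (adjusted p = 0.0463), in 1 fit over the 4 liver groups (0.0276), and without the KO HFD mouse 157 (0.00647) or the KO NCD mouse 166 (0.0381).

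Transcripts of the circadian clock, which with glucocorticoids set the daily rhythm of many liver genes, also moved with diet in liver. Of 15 tested in WT liver 9 rose and 4 fell with HFD, with a median of 0.92 beside -0.001 over all genes, Per2 by 1.98 upwards and Nr1d1 by 2.45 downwards. In KO liver 9 rose and 3 fell (median 0.978). Of all genes, 25.3% were called in WT liver and 22.2% in KO liver. The 16 clock transcripts summed to 144.7 to 234 FPKM in WT NCD, 152.9 to 210.2 in KO NCD, 238.9 to 278.3 in WT HFD and 259.6 to 304.5 in KO HFD. In visWAT 1 of 16 rose and 3 fell in WT (median -0.039), where 37.8% of all genes were called. The part of the clock genes' change in the liver values of the 10 genes was not tested. Of 30 other glucocorticoid targets in liver, 4 rose and 8 fell in WT (median -0.135, with 25.3% of all genes called) and 2 rose and 8 fell in KO (median -0.181, with 22.2% of all genes called). Tat, which breaks down tyrosine, fell by 1.58 in WT, and Igfbp1 differed by -1.66 in WT and -3.12 in KO.

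Set against each other in one fit over all 36 libraries, a comparison added after the data had been seen, the diet effect differed between visWAT and liver for 6 of 9 genes by the adjusted limma p (1 more positive in visWAT, 5 more negative), where 55.5% of all genes differed. Diet effect in visWAT minus that in liver was -2.16 for Hsd11b1 (SE 0.23), -2.10 for Fkbp5 (SE 0.20), -2.0 for Mt1 (SE 0.44), -0.94 for Nr3c1 (SE 0.11), -0.72 for Errfi1 (SE 0.20) and 0.78 for Tsc22d3 (SE 0.24), with adjusted p from 5.47e-10 to 0.00704. The Errfi1 difference was not called on a TPM scale (adjusted p = 0.0624). Sgk1 (0.27, SE 0.29), Zbtb16 (0.45, SE 0.24) and Dusp1 (0.18) did not pass, but with the mouse as a block Zbtb16 did (limma adjusted p = 0.0229), which made 7 genes. Without both tissues of mice 182 and 183 the 6 calls stood, at -2.15 for Hsd11b1, -2.17 for Fkbp5, -2.47 for Mt1, -1.05 for Nr3c1, -0.75 for Errfi1 and 0.79 for Tsc22d3. Without the WT NCD mouse 183 in both tissues Sgk1 passed at 0.59 (adjusted p = 0.0210), and without the KO NCD mouse 166 Zbtb16 passed at 0.50 (adjusted p = 0.0428).

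Whether Sgk1 and Tsc22d3 moved together from mouse to mouse was examined on deviations from group means over the 18 mice, with 100000 permutations within groups and adjustment over the 39 relations computed. In visWAT Sgk1 and Tsc22d3 gave Pearson r = 0.328 and Spearman rho = 0.148 (permutation p = 0.447, adjusted p = 0.622), and r = 0.089 without the mice 182 and 183, the farthest in Sgk1. In liver they gave r = -0.005 and rho = 0.11 (permutation p = 0.987). Tsc22d3 and Fkbp5 gave r = 0.723 and rho = 0.558 in visWAT (permutation p = 0.00853, adjusted p = 0.0769, r = 0.43 without mice 182 and 157) and r = 0.571 and rho = 0.637 in liver (permutation p = 0.00919, adjusted p = 0.0769), where Errfi1 stood slightly nearer to Tsc22d3 by r (0.595, permutation adjusted p = 0.21). Sgk1 ran against Nr3c1 in liver, with r = -0.67 and rho = -0.742 (permutation p = 0.0054, adjusted p = 0.0769, r = -0.695 without the 2 farthest mice). None of the 30 relations within tissues passed the adjustment.

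With mice 182 and 183 left out, 1 passed, Sgk1 with Dusp1 in visWAT at r = 0.671 (permutation adjusted p = 0.0333), from r = -0.184 and rho = 0.255 with all mice. Ranked among 12066 genes by r with Tsc22d3 in visWAT, Fkbp5 held place 29. Ranked by r with Sgk1, Tsc22d3 held place 2700 of 12066 in visWAT and 4662 of 11355 in liver.

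Between the visWAT and the liver of the same mouse, Tsc22d3 was the 1 of 9 genes to pass, with r = 0.808 and rho = 0.761 (permutation p = 0.00048, adjusted p = 0.0187). Without the 2 mice farthest from the median, 182 and 157, r was 0.561 (permutation adjusted p = 0.127), and on a TPM scale 0.509 (adjusted p = 0.201), so the relation rests on these mice and on the scale. Mouse 182 was lowest of WT NCD in Tsc22d3 in both tissues, at 24.6 FPKM in visWAT and 35.9 in liver, and mouse 157 highest of KO HFD in both, at 39.2 and 56.9. Errfi1 gave r = 0.637 and rho = 0.659 (permutation adjusted p = 0.0769), Zbtb16 r = 0.558 and rho = 0.529 (adjusted p = 0.21), and Sgk1 r = -0.503 and rho = -0.154 (permutation adjusted p = 0.461), which became 0.154 without mice 182 and 183.

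**Figure D4:**
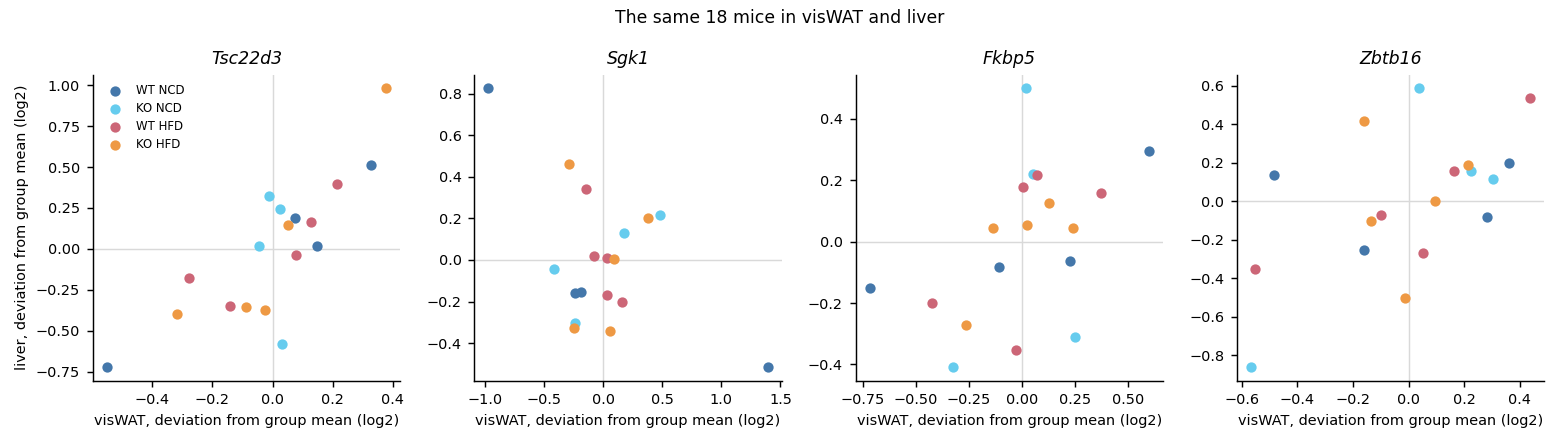
Deviation from the group mean on the log2(FPKM + 1) scale in visWAT (horizontal axis) and in liver (vertical axis) of the same mouse, for Tsc22d3, Sgk1, Fkbp5 and Zbtb16, with one point per mouse and 18 mice per panel. Tsc22d3 runs along a rising line whose ends are mice 182 and 157, and Sgk1 is spread by mice 182 and 183.

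The genes most like each of the pair were listed by r over the same 18 mice, as a description. In visWAT Sgk1 was closest to Mgat4a (0.934), Neu1 (0.931), Crybg1 (0.927), Edem2 (0.926) and Appl2 (0.909), a likeness that shares the wide spread of the visWAT libraries of mice 182 and 183. Tsc22d3 was closest there to Syde2 (0.813), Heph (0.807), Pbrm1 (0.803), Cebpg (0.797) and Ahctf1 (0.791). In liver Sgk1 was closest to Noct (0.899), Ddit3 (0.863), Ppic (0.837), Calm3 (0.821) and Pcolce (0.82), and Tsc22d3 to Kcnk5 (0.919), Pck1 (0.902), Klf15 (0.892), Klc2 (0.864) and Ppp1r3b (0.846). No gene was on both the Sgk1 and the Tsc22d3 list of a tissue.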

How the data were processed

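RNA-seq was measured in visWAT and liver of the same 18 mice. Per the labels and the study's methods, the authors selected polyadenylated RNA, mapped paired-end reads to mm39 with HISAT2 and counted them with featureCounts 1.5.0-p3, and the deposited gene table holds FPKM per library. The strand setting is not stated. For 72 further columns of per-sample values no use was made. From the deposited comparison tables only counts of at least 50 were used, to find the library size behind FPKM. The authors' fold changes and p-values in them were not used.

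FPKM times gene length and the library size found from those counts gave whole reads for 100% of values within 0.01 of a whole number. Divided by the reads on genes, the library size implied by FPKM came to 1.0103 to 1.4032 for visWAT and to 0.7371 to 0.8118 for liver, so a TPM scale was run as an alternative. Groups came from the labels. limma 3.58.1 (R 4.3.3) was fitted to log2(FPKM + 1) over genes whose mean FPKM reached 0.5 in the groups compared, with Benjamini-Hochberg adjustment over all genes tested and a threshold of 0.05. Fold changes on that scale understate changes of low genes. edgeR 4.0.16 (quasi-likelihood) and DESeq2 1.42.0 on the recovered reads, another pseudocount (0.1), another filter, a fit over all groups of a tissue, leaving out each mouse, and leaving out mice 182 and 183 were alternatives. Tests of single genes were two-sided exact permutation tests over all splits of the mice (Python 3.11.15, numpy 2.4.6). Ranks for Spearman's rho came from scipy 1.17.1. Response elements were searched in GRCm39 with GENCODE vM39. The limma step was tested on simulated data.

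The visWAT and liver of a mouse share its number in the labels and come from the same animal, which is where the pairing comes from. Deviations from group means correlated by -0.055 to 0.217 (median 0.044) between the 2 libraries of a mouse. Of 18 visWAT libraries, 1 correlated best with the liver of its own number, so the pairing rests on the labels and not on this check. Separate mice are the replicates, and depth covers counting error only. No 2 libraries agreed within sampling noise.

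The 10 genes and all lists were chosen with earlier results of these data known. All 10 are described, and of other lists at most the 3 largest rises and 3 largest falls among called genes are named in a comparison. The 5 genes most like Sgk1 and Tsc22d3 were taken by r among genes whose mean FPKM reached 1, with predicted genes left unnamed.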

Additional observations from a re-analysis of the deposited data

Results flagged for a closer look

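For each of 9 genes the highest and lowest mouse of each of 8 groups was compared with the rest of its group by Dixon's criterion, which marks about 1 group in 20 by chance. Of 72 groups of values 5 stood out. In liver, Mt1 of the WT NCD mouse 182 was 82.52 FPKM beside 8.01 to 11.2 in the other 3 mice, and Errfi1 of the same mouse was 347.2 beside 528.6 to 560.0. Mt1 of the KO NCD mouse 179 was 4.935 FPKM beside 10.5 to 11.7, and Fkbp5 of the KO HFD mouse 152 was 13.83 beside 17.5 to 18.6. In visWAT, Nr3c1 of the KO NCD mouse 166 was 19.79 FPKM beside 15.4 to 16.0.

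The effect of HFD differed between visWAT and liver, by limma's test of the difference itself, for 6 of 9 tested genes, where 55.5% of all genes differed. Visceral fat minus liver, on the log2 scale, it was 0.78 for Tsc22d3, -2.1 for Fkbp5, -0.94 for Nr3c1, -2.16 for Hsd11b1, -2.0 for Mt1 and -0.72 for Errfi1.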

How the results depend on the processing

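Of 55 gene differences with an unadjusted limma p under 0.05, 1006 of 1064 alternative values kept their direction and side of the threshold, 35 lost the call, 20 gained one and 3 changed direction. The 3 were on a TPM scale: Nr3c1 with HFD in WT visWAT (0.0279), and Fkbp5 (0.53) and Nr3c1 (0.73) between tissues. Mt1 between visWAT and liver of a mouse went to r = 0.045 without the 2 farthest mice. The cause was not tested.

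DESeq2 called 3 genes against 0 for KO against WT on HFD in visWAT and 1 against 0 for KO against WT on NCD in liver, and over all genes 161 against 3 and 21 against 1. Relations called were 1 against 0 within tissues without mice 182 and 183, and 0 against 1 between tissues on a TPM scale or without the 2 farthest mice.

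Leaving out each mouse gave 0 to 1 calls for KO against WT on HFD in visWAT, and 3 to 5 with HFD in WT visWAT, where 3 came without the WT HFD mouse 155 or 162. With the mouse as a replicate block, 7 genes against 6 differed between visWAT and liver, Tsc22d3 being added (adjusted p = 0.0111), and 7 against 6 in the diet effect, Zbtb16 being added (0.0229). On a TPM scale, where the median of all genes moved upwards as given above, all 9 differed between tissues (7 higher, 2 lower). The 88.8% of all genes comes from the main fit on FPKM and is no like share for this count.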
